A study of Arabidopsis thaliana with 18 samples.

Results

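The photosystems are the pigment-protein complexes of the thylakoid membrane that use light to drive electron transport, and 43 nuclear genes of Arabidopsis for their subunits and antennae were examined among the 32833 genes of the deposited expression table. The members were taken by their locus identifiers and fall into 4 classes: 6 LHCA genes for the antenna of photosystem I, 14 LHCB genes for the antenna of photosystem II, 12 PSA genes for subunits of photosystem I and 11 PSB genes for subunits of photosystem II, among them PSBS. The proteins are made in the cytosol, imported into the chloroplast and assembled there with subunits that the plastid genome encodes. LHCB1, LHCB2 and LHCB3 form the trimeric antenna LHCII, while LHCB4, LHCB5 and LHCB6 are the monomeric antenna proteins between the trimers and the core. Genes of this kind are known from many plants for transcript levels that follow light and the circadian clock.

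RNA had been sequenced from whole rosettes of 20-d-old plants grown with 12 h of light and 12 h of dark. The lines were SnRK1α1-OE, which carries a 35S::SnRK1α1 transgene in the Col-0 background, and sesquiα2, a partial loss-of-function mutant of genotype snrk1α1−/− snrk1α2+/− from the T-DNA lines GABI_579E09 and WiscDsLox384F5, and both were compared with the wild type Col-0. SnRK1 is a protein kinase of energy signalling, and SnRK1α1 and SnRK1α2 are its catalytic subunits. Each genotype was harvested at the end of the night (EN, 24 h after dawn) and at the end of the day (ED, 12 h after dawn), with 3 libraries per group, each from a pool of rosettes, so that 18 libraries were available. The 35S promoter drives the transgene in nearly all tissues. Seedlings of sesquiα2 were selected on BASTA medium before transfer to soil, whereas the other genotypes were sown directly on soil, and this difference in handling cannot be told apart from the genotype. In bulk rosettes, fewer photosynthetic cells and less RNA per cell cannot be told apart either.

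The values are normalised read counts on a common scale, with 37929523 to 37930213 per library, and 35050877 to 40416618 whole reads were recovered per library. The SnRK1α1 transcript reached 28713 to 32681 in SnRK1α1-OE, against 1685 to 1991 in Col-0. In the libraries labelled sesquiα2 it was 1672 to 1949.9, so the total count over this gene did not tell the T-DNA allele from Col-0. SnRK1α2, at ED, had 905.2 to 1069.4 in sesquiα2 against 1405.1 to 1505.7 in Col-0, without overlap. At EN the groups overlapped, with 1161.2 to 1275.3 in sesquiα2 against 1202.5 to 1484.2 in Col-0. The dawn clock gene CCA1 had 21839 to 30986 at EN against 44.2 to 113 at ED over all genotypes. Of 3 mesophyll markers, RCA was higher at EN in all 3 genotypes, CA1 only in Col-0 (0.44, against 0.12 in SnRK1α1-OE and −0.17 in sesquiα2, a difference between genotypes that did not pass the test), and RBCS1A in none. Col-0 ED replicate 1 stood apart among the members, with the highest value of the 3 Col-0 ED libraries for 39 of 42 members and a median deviation of 0.20 on the log2 scale. Deviations of all genes within groups also followed gene length in some libraries, most in Col-0 EN replicate 1 (r = −0.37 with log2 length over 20338 genes) and SnRK1α1-OE ED replicate 3 (r = −0.37). The members were short, with a median of 1219 bases against 1756.5 bases for all genes tested, and the part of these trends in the results was examined only by the alternatives given beside them.

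Upstream sequence is shown for 6 members: the 3 LHCB2 copies, which had the largest changes between EN and ED, the close copies LHCB1.1 and LHCB1.2, which changed unlike each other, and LHCA4, the LHCA gene with the largest change. Each run is the 250 bases before the annotated gene start, read 5′ to 3′ along the gene's strand from the RefSeq genome TAIR10.1, in which the exon lengths of 43 of 43 members equalled the deposited lengths. The windows are chr2:1824481-1824730 on the minus strand for LHCB2.1, chr2:1800473-1800722 on the minus strand for LHCB2.2, chr3:10255656-10255905 on the plus strand for LHCB2.3, chr1:10475970-10476219 on the minus strand for LHCB1.1, chr1:10473503-10473752 on the minus strand for LHCB1.2 and chr3:17495034-17495283 on the minus strand for LHCA4, and none contains an annotated exon. Capitals mark matches to any of 5 motifs on either strand.
LHCB2.1: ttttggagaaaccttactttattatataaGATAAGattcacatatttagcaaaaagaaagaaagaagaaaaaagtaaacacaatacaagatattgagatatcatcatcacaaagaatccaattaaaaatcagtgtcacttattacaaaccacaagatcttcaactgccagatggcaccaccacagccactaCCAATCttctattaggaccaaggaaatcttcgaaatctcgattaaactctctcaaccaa
LHCB2.2: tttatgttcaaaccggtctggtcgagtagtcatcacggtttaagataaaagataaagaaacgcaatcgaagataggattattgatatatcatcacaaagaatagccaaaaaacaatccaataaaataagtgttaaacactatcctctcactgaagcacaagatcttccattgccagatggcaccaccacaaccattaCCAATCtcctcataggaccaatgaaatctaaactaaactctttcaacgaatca
LHCB2.3: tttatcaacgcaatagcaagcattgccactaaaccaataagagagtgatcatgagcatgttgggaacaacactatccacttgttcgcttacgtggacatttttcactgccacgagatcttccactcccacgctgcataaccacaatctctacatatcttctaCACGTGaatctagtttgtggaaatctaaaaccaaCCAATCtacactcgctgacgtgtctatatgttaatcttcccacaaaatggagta
LHCB1.1: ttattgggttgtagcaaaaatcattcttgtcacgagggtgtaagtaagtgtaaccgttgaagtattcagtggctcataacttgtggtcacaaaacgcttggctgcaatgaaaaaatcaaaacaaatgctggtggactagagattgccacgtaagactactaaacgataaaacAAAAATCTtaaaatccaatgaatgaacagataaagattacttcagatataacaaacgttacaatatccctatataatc
LHCB1.2: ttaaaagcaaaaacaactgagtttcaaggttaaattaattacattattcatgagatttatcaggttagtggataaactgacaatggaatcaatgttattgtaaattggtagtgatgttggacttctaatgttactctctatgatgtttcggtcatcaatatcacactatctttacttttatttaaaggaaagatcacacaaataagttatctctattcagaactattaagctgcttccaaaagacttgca
LHCA4: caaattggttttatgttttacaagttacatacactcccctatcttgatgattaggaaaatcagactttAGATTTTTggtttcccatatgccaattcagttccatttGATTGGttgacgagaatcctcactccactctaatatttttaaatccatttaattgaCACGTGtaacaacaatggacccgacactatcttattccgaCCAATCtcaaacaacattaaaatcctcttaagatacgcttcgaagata

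The CCAAT-box (CCAATC) was found in 25.6% of the members' windows (11 of 43) and in 10.2% of 27443 windows of the same length before annotated protein-coding genes of the nuclear chromosomes. All 3 LHCB2 windows held it. The G-box (CACGTG), bound by bZIP and bHLH factors, was found in 20.9% of the members' windows (9 of 43) against 6.5% of all windows, among them those of LHCB2.3 and LHCA4. The I-box (GATAAG) was in 20.9% (9 of 43) against 12.3%, and the CCA1-binding site (AAAAATCT) in 11.6% (5 of 43, namely LHCA4, LHCB1.1, LHCB1.4, PSAN and PSAO) against 6.7%. The evening element core (AAATATCT) was in 1 member window, that of LHCA5, against 4.8% of all windows, and the window of LHCB1.2 held none of the 5 motifs as spelled here. The shorter run CCAAT, which the LHCB1.2 window holds on the other strand, was not counted. No motif contains another, and a match is only a match of letters.

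The members made up a large part of each library. Their summed share was 8.82, 9.46 and 8.49% of the normalised reads in SnRK1α1-OE EN libraries, 7.02, 7.19 and 7.84% in SnRK1α1-OE ED, 10.4, 10.3 and 10.4% in sesquiα2 EN, 6.86, 6.62 and 6.81% in sesquiα2 ED, 10.1, 9.93 and 9.47% in Col-0 EN and 6.94, 5.52 and 5.58% in Col-0 ED. In every genotype the 3 EN libraries lay above the 3 ED libraries. Per length, 23 members were among the 50 highest of all genes and 36 among the 200 highest, and LHCB1.3, with a mean of 487841 normalised reads per kilobase over the 18 libraries, ranked 2 among all genes. LHCB1.5 (AT2G34420) was at 0 in all 18 libraries, and a lncRNA annotated on the opposite strand over its whole length, AT2G08665, also had 0 reads. The strand setting of the counting is not given in the sources used here, so the 0 does not show that LHCB1.5 is silent. The LHCB1 sums and the class shares hold no reads of this copy. LHCB1.5 could not be tested, which left 42 members.

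The classes took up different parts of the difference between EN and ED. The LHCB share was 4.23, 4.8 and 4.17% at EN against 2.49, 2.67 and 2.7% at ED in SnRK1α1-OE, 5.54, 5.18 and 5.63% against 2.37, 2.49 and 2.45% in sesquiα2, and 4.64, 5.09 and 4.72% against 2.81, 2.15 and 2.12% in Col-0, with no overlap between time points in any genotype. LHCA shares also lay higher at EN without overlap. The PSB share went opposite ways, with 2.17, 2.18 and 2.07% at EN against 2.34, 2.26 and 2.63% at ED in SnRK1α1-OE, where all EN libraries were the lower ones, and 2.47, 2.26 and 2.24% against 2.01, 1.68 and 1.73% in Col-0, where all EN libraries were the higher ones. In sesquiα2 the PSB shares of the time points overlapped. The PSA share overlapped between time points in SnRK1α1-OE and sesquiα2 and was higher at EN in Col-0. With 3 libraries against 3, these shares are given as a description.

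**Figure D1:**
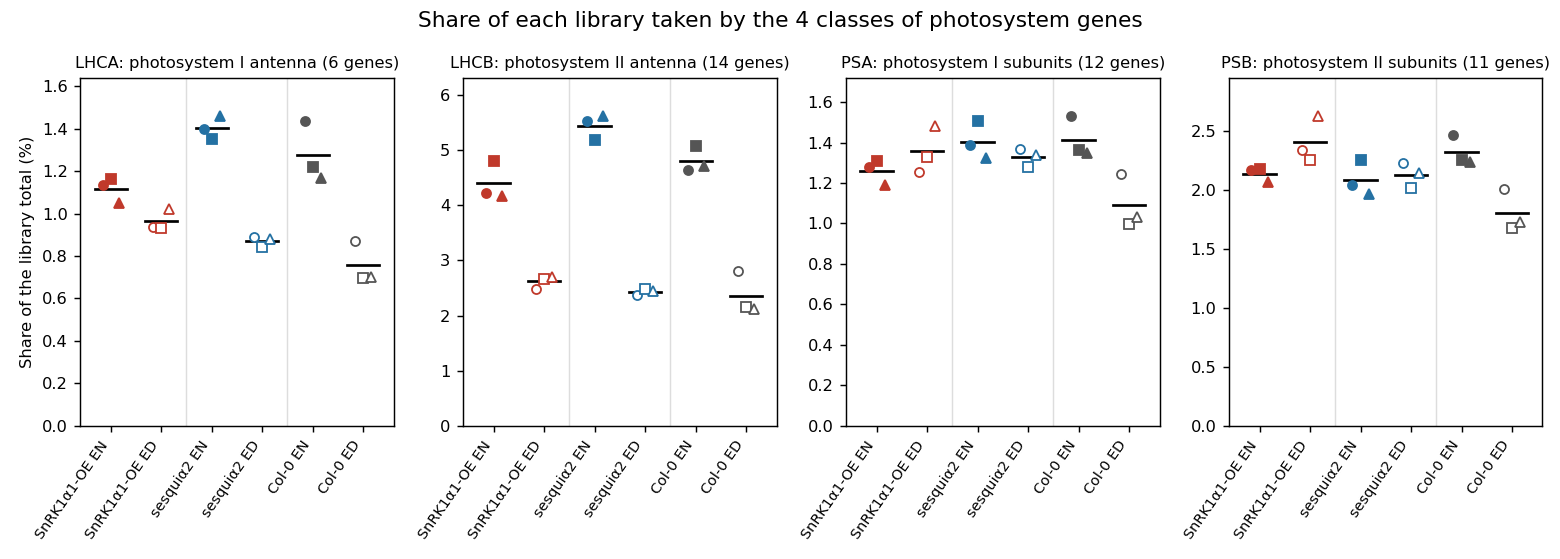
Share of the library total (%, vertical axis) taken by the genes of each class in each library (points; filled, EN; open, ED; circle, square and triangle, replicates 1, 2 and 3), with the group mean as a black line. The LHCB share at EN was at least 4.17% in all EN libraries and the LHCB share at ED at most 2.81%.

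The first question was how the members changed between EN and ED within each genotype, tested with limma over all genes with Benjamini-Hochberg adjustment and called at an adjusted p under 0.05. In SnRK1α1-OE, 15 of 42 members were higher at EN (background: 21.2% of all genes tested) and 7 were lower (24.3%). In sesquiα2, 19 were higher (22.1%) and 4 lower (26.8%). In Col-0, 24 were higher (16.1%) and 1 was lower (28.9%). With a change of at least 1 on the log2 scale required as well, 8 members were higher in SnRK1α1-OE (7.88%), 10 in sesquiα2 (8.39%) and 10 in Col-0 (7.63%), and none was lower. The median over the members on the log2 scale was −0.06 in SnRK1α1-OE, 0.14 in sesquiα2 and 0.45 in Col-0, beside −0.03, −0.03 and −0.16 over all genes tested.

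The same 15 members were higher at EN in all 3 genotypes, namely LHCA1, LHCA4 and LHCA5, LHCB1.1, LHCB1.3, LHCB1.4, all 3 LHCB2 copies, LHCB3, LHCB4.2, LHCB5 and LHCB6, PSAD2 and PSAH2. PSAG was lower in all 3. Another 11 members were called in no genotype: LHCA2, LHCB4.1, PSAE1, PSAF, PSAH1, PSAL, PSAO, PSBO1, PSBS, PSBTN and PSBW. The deposited values have equal totals without a correction for composition, and the split changed with the scaling in Col-0 and sesquiα2. Median-ratio scaling moved the all-gene median in Col-0 to 0.01 and gave 30 members higher and 0 lower, and quantile normalization gave 18 higher and 10 lower in sesquiα2. The shares of all genes higher and lower under these scalings are not given here. The 3 comparisons rest on separate libraries.

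**Figure D2:**
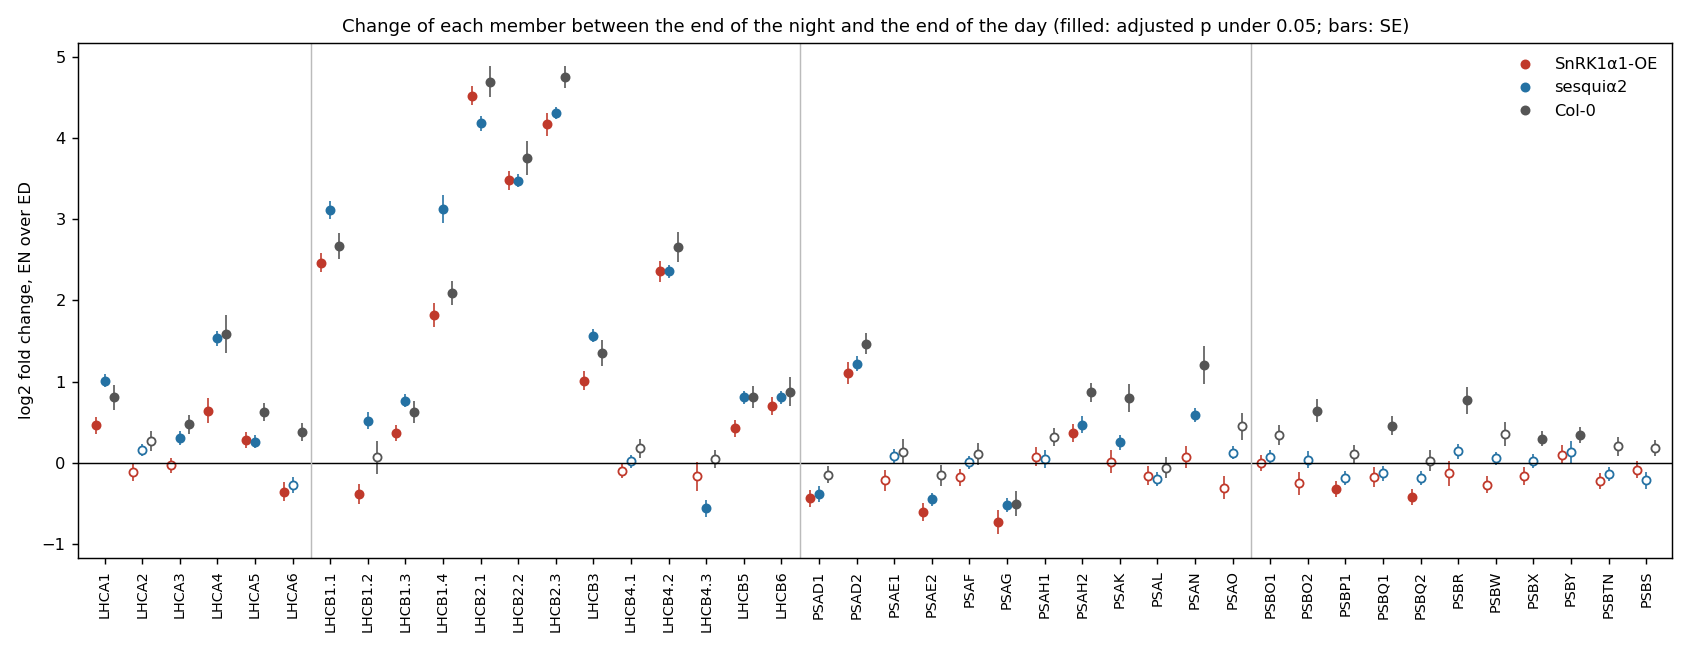
Log2 fold change of EN over ED (vertical axis) for the 42 members tested, in SnRK1α1-OE, sesquiα2 and Col-0, with the SE as bars and members with an adjusted p under 0.05 filled. The LHCB2 copies reach 3.47 to 4.74, while no PSB gene exceeds 0.77.

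The LHCB2 genes, which encode an LHCII protein that is phosphorylated in state transitions, changed most. In SnRK1α1-OE, LHCB2.1 (AT2G05100) had 90625, 108460.0 and 104858 normalised reads at EN against 3962, 4500.3 and 4802 at ED. In sesquiα2 the values were 126049.7, 121868 and 108417 at EN against 7068, 6452 and 6175 at ED. In Col-0 they were 103566, 123918 and 107898 against 5726, 3391 and 4145. The time points were far apart in every genotype, and the log2 fold change was 4.52 (SE 0.12, adjusted p = 1.45e-08) in SnRK1α1-OE, 4.18 (SE 0.093, adjusted p = 4.28e-09) in sesquiα2 and 4.69 (SE 0.19, adjusted p = 4.76e-06) in Col-0. LHCB2.2 (AT2G05070), whose window also holds the CCAAT-box, had 46416, 57523 and 47374 at EN against 4253, 4556 and 4702 at ED in SnRK1α1-OE, 73578, 71617 and 66985 against 6560.0, 6450.5 and 6080.2 in sesquiα2, and 62307, 62352 and 52991 against 6058, 3392 and 4058 in Col-0. On the log2 scale it changed by 3.48 in SnRK1α1-OE, 3.47 in sesquiα2 and 3.76 in Col-0, the smallest of the 3 copies in each genotype.

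LHCB2.3 (AT3G27690) was the lowest copy. It had 17009, 22620.3 and 17092 at EN against 932, 1035 and 1179 at ED in SnRK1α1-OE, 30002, 31815 and 30818 against 1614, 1577 and 1488 in sesquiα2, and 25784, 25140.5 and 21274 against 1006, 772 and 919.6 in Col-0. The log2 fold changes were 4.16 (SE 0.14, adjusted p = 6.47e-08), 4.31 (SE 0.076, adjusted p = 1.72e-09) and 4.74 (SE 0.14, adjusted p = 1.45e-06) in the same order of genotypes. A gene on the opposite strand, AT3G27700, overlaps 37.6% of LHCB2.3 and had 575 to 1158 reads per library, near the level of LHCB2.3 at ED. The strand setting of the counting is not given in the sources used here, so reads of the 2 genes cannot be told apart in the overlap. Per length, LHCB2.1 took 55.9% ± 2.28 of the LHCB2 sum at EN against 40.3% ± 0.883 at ED in SnRK1α1-OE, 50.4% ± 1.11 against 41.3% ± 0.939 in sesquiα2 and 53.8% ± 2.86 against 40.9% ± 0.446 in Col-0 (SD, n = 3). LHCB2.2 was the largest copy at ED and LHCB2.1 at EN in all 3 genotypes.

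The LHCB1 genes encode the most abundant LHCII protein. LHCB1.1 (AT1G29920), LHCB1.2 (AT1G29910) and LHCB1.3 (AT1G29930) lie close together on chromosome 1 of TAIR10.1 (chr1:10474656-10475969, chr1:10472280-10473502 and chr1:10477885-10479114), and their coding sequences are 95.6% to 96.4% identical, so the reads that each copy received may be uncertain. The copies nonetheless differed in their counts. In SnRK1α1-OE, LHCB1.1 had 226427, 265020.5 and 213633 normalised reads at EN against 38024, 45350.5 and 44327 at ED. sesquiα2 had 302479, 270874 and 303533 against 29505, 39711 and 32879, and Col-0 had 242412, 252806 and 236114 against 48202, 36807 and 31697. LHCB1.1 was thus higher at EN without overlap everywhere, by 2.46 (SE 0.12, adjusted p = 4.87e-07) in SnRK1α1-OE, 3.11 (SE 0.12, adjusted p = 6.53e-08) in sesquiα2 and 2.67 (SE 0.16, adjusted p = 2.09e-05) in Col-0 on the log2 scale.

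LHCB1.2 had no common direction. It had 61504, 59401 and 46263 normalised reads at EN against 69639.6, 74564 and 71763 at ED in SnRK1α1-OE, where EN was lower, with a log2 change of −0.38 (SE 0.12, adjusted p = 0.0322). In sesquiα2 it had 71762, 57111 and 72442 at EN against 45839, 46283 and 47485 at ED, where EN was higher, with a log2 change of 0.52 (SE 0.10, adjusted p = 0.00269). In Col-0 the groups overlapped, with 59659, 55817 and 52424 at EN against 74988, 44523 and 45423 at ED and a log2 change of 0.07 (SE 0.20, adjusted p = 0.815). The difference of this change from Col-0 did not pass the threshold, at −0.45 (SE 0.25, adjusted p = 0.322) for SnRK1α1-OE and 0.45 (SE 0.24, adjusted p = 0.364) for sesquiα2. The call in SnRK1α1-OE held in 1 of 6 fits with 1 library left out, with log2 fold changes of −0.46 to −0.25.

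LHCB1.3, the highest member, rose at EN by a smaller factor. It had 669389.8, 707842 and 615569 at EN against 481409, 525978 and 533551 at ED in SnRK1α1-OE, 786742, 729327 and 813084 against 441069, 474919.9 and 452207 in sesquiα2 and 698804, 747254 and 712985 against 557585, 432631 and 420456 in Col-0. No groups overlapped, and the log2 fold changes were 0.37 (SE 0.097, adjusted p = 0.012), 0.77 (SE 0.084, adjusted p = 6.02e-05) and 0.63 (SE 0.13, adjusted p = 0.00677) in that order. Quantile normalization turned the value in SnRK1α1-OE to −0.19, and it ended the calls in sesquiα2 (0.11) and Col-0 (0.00). That setting fixes values by rank, so it can show little of a change in a gene as high as LHCB1.3. Without ED replicate 1 or without EN replicate 2 the SnRK1α1-OE value was 0.32 and no longer called.

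LHCB1.4 (AT2G34430), on chromosome 2 and 86.8% to 88.2% identical to the other copies with reads, was again strongly higher at EN. It had 39856, 54669 and 42695 against 14651, 11925 and 12082 in SnRK1α1-OE, 73958, 64176 and 80346 against 6653, 7836 and 11016 in sesquiα2 and 54818, 72671 and 55459 against 12522, 15339 and 14815 in Col-0. The log2 fold change was 1.82 in SnRK1α1-OE, 3.12 in sesquiα2 and 2.09 in Col-0. Per length, LHCB1.1 made up 22.4% ± 0.833 of the LHCB1 sum at EN against 6.24% ± 0.286 at ED in SnRK1α1-OE, 23.1% ± 0.281 against 5.85% ± 0.649 in sesquiα2 and 21.5% ± 0.327 against 6.3% ± 0.417 in Col-0 (SD, n = 3). LHCB1.3 held the largest share at both times, at 67.6% ± 1.1 against 80.5% ± 0.463 in SnRK1α1-OE, 65.5% ± 0.689 against 84% ± 0.551 in sesquiα2 and 67.8% ± 0.713 against 81.8% ± 0.892 in Col-0.

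**Figure D3:**
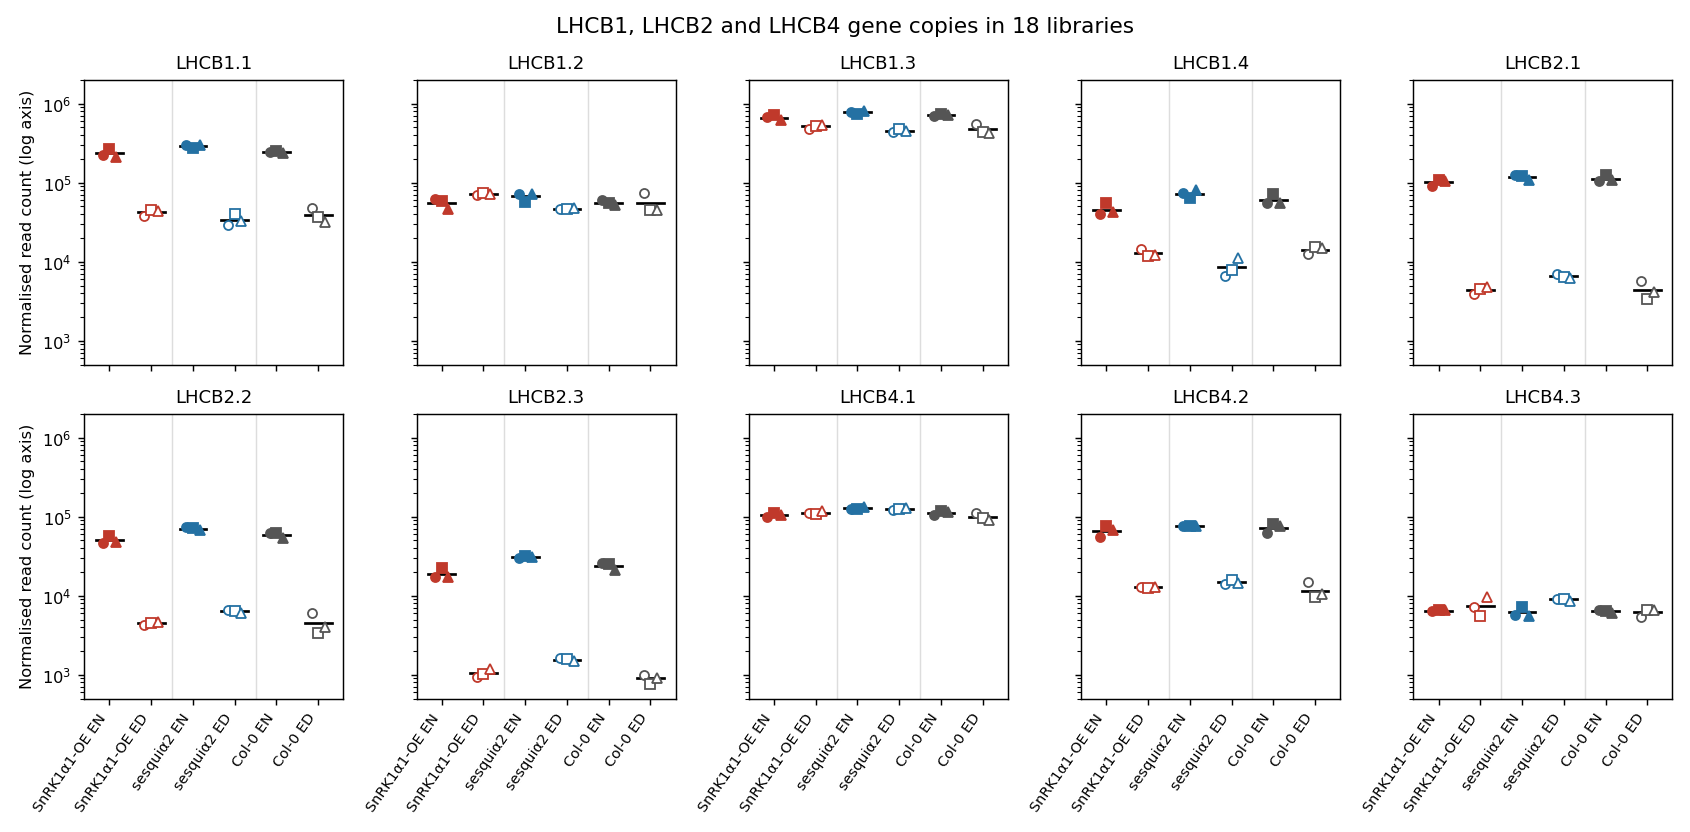
Normalised read count (log axis) of the LHCB1, LHCB2 and LHCB4 copies with reads in each library (points; filled, EN; open, ED; circle, square and triangle, replicates 1, 2 and 3), with the group mean as a black line. LHCB1.1, LHCB1.4, the LHCB2 copies and LHCB4.2 are far higher at EN, whereas the EN and ED values of LHCB1.2 and LHCB4.1 lie much closer together.

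Of the remaining LHCB genes, those for the third LHCII protein and for the monomeric antenna were mostly higher at EN. LHCB3 (AT5G54270) had 77241, 97247 and 80182 at EN against 41185, 44234 and 40308 at ED in SnRK1α1-OE, 131133, 122397 and 136839 against 43057, 42908 and 45756 in sesquiα2 and 94611, 98778 and 92461 against 48173, 32953 and 32665 in Col-0. It was called in all 3 genotypes (1.01, 1.57 and 1.35 on the log2 scale). LHCB5 (AT4G10340) rose by 0.43 in SnRK1α1-OE, 0.81 in sesquiα2 and 0.81 in Col-0, and LHCB6 (AT1G15820) by 0.70, 0.81 and 0.87. Without SnRK1α1-OE EN replicate 2 the value of LHCB5 in SnRK1α1-OE was 0.38 and no longer called. Genes annotated on the opposite strand overlap 32.5% of LHCB6 and 13.2% of LHCB3, and how reads there were counted is not known.

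The LHCB4 copies also parted. LHCB4.2 (AT3G08940) had 54903, 75322 and 67835 at EN against 12926, 12561 and 12846 at ED in SnRK1α1-OE, 75512, 76448 and 75938 against 14172, 15799.9 and 14591 in sesquiα2 and 61822, 79688 and 76552 against 14769.8, 9618 and 10476 in Col-0. The log2 change was 2.36 (SE 0.13, adjusted p = 9.61e-07), 2.36 (SE 0.08, adjusted p = 3.63e-08) and 2.66 (SE 0.18, adjusted p = 4.07e-05) in that order. LHCB4.1 (AT5G01530), with 81.1% coding identity to LHCB4.2, was not called in any genotype, at −0.10 (SE 0.096) in SnRK1α1-OE, 0.02 (SE 0.08) in sesquiα2 and 0.18 (SE 0.11) in Col-0. The per-length ratio of LHCB4.2 to LHCB4.1 was 0.641 ± 0.0703 at EN against 0.117 ± 0.00414 at ED in SnRK1α1-OE, 0.612 ± 0.0265 against 0.121 ± 0.0083 in sesquiα2 and 0.658 ± 0.0475 against 0.118 ± 0.0179 in Col-0 (SD, n = 3). LHCB4.3 (AT2G40100) was lower at EN in sesquiα2, with 5687, 7149 and 5615 at EN against 9188, 9127 and 8674 at ED and a log2 change of −0.56 (SE 0.10, adjusted p = 0.00174), and it was not called in SnRK1α1-OE (−0.17, SE 0.18) or Col-0 (0.05, SE 0.12).

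Among the LHCA genes, LHCA4 (AT3G47470) changed most. LHCA1 (AT3G54890) to LHCA4 form the antenna belt of photosystem I, and LHCA5 (AT1G45474) and LHCA6 (AT1G19150) link photosystem I to the NDH complex of cyclic electron flow. LHCA4 had 146434, 121253 and 101905 normalised reads at EN against 77663, 68247 and 89555 at ED in SnRK1α1-OE, 160488, 145339 and 173689.9 against 53084, 56259.5 and 56262 in sesquiα2 and 208902, 128429 and 117127 against 59006, 43498 and 45579 in Col-0. The groups did not overlap, and the log2 fold change was 0.64 (SE 0.15, adjusted p = 0.00731) in SnRK1α1-OE, 1.53 (SE 0.091, adjusted p = 1.26e-06) in sesquiα2 and 1.58 (SE 0.23, adjusted p = 0.00127) in Col-0. Col-0 EN replicate 1 was far above the other Col-0 EN libraries. LHCA1, the partner of LHCA4, had 82965, 97371 and 85110.2 at EN against 60610.4, 65304 and 66818 at ED in SnRK1α1-OE, 126502, 117506 and 132985 against 62729, 61888 and 62214 in sesquiα2 and 100652, 100376 and 93642 against 70856, 49481 and 50481 in Col-0. It was called in all 3 genotypes (0.46, 1.01 and 0.81).

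LHCA3 (AT1G61520) was higher at EN in sesquiα2 (0.31) and in Col-0 (0.48) and was −0.03 (SE 0.091) in SnRK1α1-OE. The sesquiα2 call was lost when EN replicate 1 was left out (0.31), and the Col-0 call when ED replicate 3 was left out (0.44). LHCA5 was higher in all 3 genotypes (0.28 in SnRK1α1-OE, 0.26 in sesquiα2 and 0.62 in Col-0), with a call in SnRK1α1-OE in 2 of 6 fits that left out a library and in sesquiα2 in 3 of 6. LHCA2 (AT3G61470) was not called (−0.12, 0.16 and 0.26). LHCA6 had 6324, 6724 and 6701 at EN against 8512, 7395 and 9484 at ED in SnRK1α1-OE, 5692, 6429 and 5698 against 8098, 6419 and 7082 in sesquiα2 and 7469, 7263 and 6684 against 6091, 5156 and 5276 in Col-0. It was lower at EN in SnRK1α1-OE (−0.36, SE 0.12, adjusted p = 0.0339) and higher in Col-0 (0.38, SE 0.11, adjusted p = 0.0251), and in sesquiα2 it was −0.27 (SE 0.10, adjusted p = 0.0505). The difference from Col-0 did not pass the threshold, at −0.73 (SE 0.15, adjusted p = 0.0746) for SnRK1α1-OE and −0.65 (SE 0.15, adjusted p = 0.0708) for sesquiα2, and the calls held in 1 of 6 fits in SnRK1α1-OE and 3 of 6 in Col-0 with a library left out.

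Photosystem I subunits moved in both directions. PSAD and PSAE form the stromal ridge where ferredoxin docks, and each is encoded by a pair of genes. PSAD2 (AT1G03130) had 23625, 29089 and 24721 at EN against 10262, 13118 and 12645 at ED in SnRK1α1-OE, 30306, 33314 and 27454 against 13164, 13081 and 12750.4 in sesquiα2 and 29406, 27320.3 and 27549 against 12004, 8973 and 9776 in Col-0. All groups lay apart, with log2 fold changes of 1.11 (SE 0.13, adjusted p = 0.000151), 1.22 (SE 0.09, adjusted p = 5.23e-06) and 1.46 (SE 0.13, adjusted p = 0.000115). PSAD1 (AT4G02770), with 86.3% coding identity, lay lower at EN without overlap in every genotype, with 49207, 50224 and 47053 at EN against 60539, 69031 and 69404 at ED in SnRK1α1-OE, 48182, 54485 and 46705 against 69235, 58917 and 66996 in sesquiα2 and 51613, 49817 and 49914 against 61851, 52459 and 53705 in Col-0. It was called in SnRK1α1-OE (−0.44) and sesquiα2 (−0.39) and not in Col-0 (−0.15, SE 0.10). The difference of this change from Col-0 was not called in either line. The sesquiα2 call was lost on the recovered reads in edgeR (−0.34, adjusted p = 0.0634), with median-ratio scaling (−0.35) and with a length and GC trend removed (−0.34), and the SnRK1α1-OE call with that trend removed (−0.29). The per-length ratio of PSAD2 to PSAD1 was 0.627 ± 0.0588 at EN against 0.214 ± 0.0123 at ED in SnRK1α1-OE, 0.723 ± 0.0245 against 0.238 ± 0.0218 in sesquiα2 and 0.66 ± 0.0136 against 0.216 ± 0.0137 in Col-0 (SD, n = 3).

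PSAE2 (AT2G20260) was lower at EN in SnRK1α1-OE (−0.60, SE 0.11, adjusted p = 0.00195) and sesquiα2 (−0.45, SE 0.079, adjusted p = 0.0012), with 10068, 10664 and 9754 at EN against 15484, 13973 and 16968 at ED in SnRK1α1-OE and 10219, 10717 and 11376 against 14681, 14966 and 14426 in sesquiα2. In Col-0 its groups overlapped, with 12036, 11161 and 10447 at EN against 14319, 11120.4 and 12158 at ED and −0.15 (SE 0.12). PSAE1 (AT4G28750) was not called, at −0.21 (SE 0.13) in SnRK1α1-OE, 0.08 (SE 0.09) in sesquiα2 and 0.14 (SE 0.15) in Col-0. The ratio of PSAE2 to PSAE1 per length was 1.53 ± 0.0188 at EN against 2.03 ± 0.383 at ED in SnRK1α1-OE, 1.21 ± 0.113 against 1.74 ± 0.11 in sesquiα2 and 1.48 ± 0.132 against 1.8 ± 0.133 in Col-0. Genes annotated on the opposite strand overlap 34.1% of PSAE1 and 6.1% of PSAE2. How reads in these overlaps were counted is not known, so the level of the ratio is uncertain.

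PSAH2 (AT1G52230), one of the genes for the subunit at which LHCII docks to photosystem I, had 32414, 32690.2 and 29789 at EN against 24945, 22016 and 26737 at ED in SnRK1α1-OE, 29347, 36971 and 28571 against 23026, 22137 and 22857 in sesquiα2 and 38288, 30924 and 33414 against 20207, 17694 and 18166 in Col-0. It was higher at EN throughout, at 0.37 (SE 0.11, adjusted p = 0.0219), 0.47 (SE 0.11, adjusted p = 0.00524) and 0.87 (SE 0.12, adjusted p = 0.000869), and the SnRK1α1-OE call held in 3 of 6 fits with a library left out. PSAH1 (AT3G16140), with 87.0% coding identity, was not called, at 0.08 (SE 0.11) in SnRK1α1-OE, 0.04 (SE 0.11) in sesquiα2 and 0.32 (SE 0.11) in Col-0. The ratio of PSAH2 to PSAH1 was 3.32 ± 0.493 at EN against 2.7 ± 0.319 at ED in SnRK1α1-OE, 3.42 ± 0.165 against 2.55 ± 0.224 in sesquiα2 and 3.42 ± 0.653 against 2.31 ± 0.281 in Col-0. Reads may be shared within these similar pairs. Genes annotated on the opposite strand cover 49.0% of PSAH1 and 61.4% of PSAG (AT1G55670) and had 0 reads. Another covers 20.0% of PSAH2 and had 13 to 113 reads. Whether reads in these overlaps were counted for PSAH1, PSAG and PSAH2 is not known.

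PSAG and PSAK (AT1G30380) attach the antenna belt to the core. PSAG had 8360.5, 9099 and 7850.4 at EN against 11108, 16362 and 15040.4 at ED in SnRK1α1-OE, 11442, 11119 and 9791 against 15484, 16243 and 14541 in sesquiα2 and 8900.2, 8821 and 9428 against 16109, 11306 and 11557 in Col-0. It was lower at EN in each, at −0.73 (SE 0.15, adjusted p = 0.00365), −0.52 (SE 0.091, adjusted p = 0.00118) and −0.50 (SE 0.15, adjusted p = 0.0294). In Col-0 the call was lost without each of 4 of the 6 libraries and in edgeR (−0.39, adjusted p = 0.0841), with median-ratio scaling (−0.33) and with the trend removed (−0.40). PSAN (AT5G64040), a lumenal subunit near the docking site of plastocyanin, had 69111, 74703 and 66459.8 at EN against 49711, 44148 and 45944 at ED in sesquiα2 and 102254, 68327 and 60769.9 against 41049, 25731 and 32879 in Col-0, and was higher at EN in both, at 0.59 (SE 0.087, adjusted p = 0.000439) and 1.2 (SE 0.24, adjusted p = 0.005). In SnRK1α1-OE it was 0.07 (SE 0.14, adjusted p = 0.706). PSAF (AT1G31330), which binds plastocyanin, was −0.18 (SE 0.11) in SnRK1α1-OE, 0.01 (SE 0.081) in sesquiα2 and 0.11 (SE 0.13) in Col-0, without a call. PSAL (AT4G12800) and PSAO (AT1G08380), which serve with PSAH in the docking of LHCII, had no call either, at −0.16, −0.20 and −0.06 for PSAL and −0.31, 0.13 and 0.45 for PSAO in the same order. PSAK was higher at EN in Col-0 (0.79, SE 0.17, adjusted p = 0.0077) and in sesquiα2 (0.25, SE 0.092, adjusted p = 0.0445), the sesquiα2 call being held in 1 of 6 fits with a library left out, and was 0.02 (SE 0.14, adjusted p = 0.94) in SnRK1α1-OE.

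No photosystem II subunit changed by 1 or more on the log2 scale in any genotype, and no PSB gene was called in sesquiα2 by limma (1 at an unadjusted p under 0.05). In Col-0, 5 were higher at EN. PSBR (AT1G79040), a subunit near the oxygen-evolving complex, had 194569, 137055 and 138201 at EN against 103407, 83143 and 86457 at ED in Col-0 and a log2 change of 0.77 (SE 0.17, adjusted p = 0.0077), with Col-0 EN replicate 1 far above the rest. Quantile normalization ended this call (0.34). In the lines its time points overlapped, at −0.13 (SE 0.16) in SnRK1α1-OE and 0.14 (SE 0.094) in sesquiα2. PSBO2 (AT3G50820) rose in Col-0 by 0.64, PSBQ1 (AT4G21280) by 0.46, PSBY (AT1G67740) by 0.35 and PSBX (AT2G06520) by 0.30. The calls of PSBQ1, PSBY and PSBX held in 4, 3 and 2 of 6 fits with a Col-0 library left out. In SnRK1α1-OE, 2 members were lower at EN. PSBQ2 (AT4G05180) had 35165, 40206 and 36603 at EN against 47669, 51404 and 50397 at ED in SnRK1α1-OE (−0.42, SE 0.10, adjusted p = 0.00805), and PSBP1 (AT1G06680) had 107098, 116661 and 111576 against 135817, 137841 and 145961 (−0.32, SE 0.093, adjusted p = 0.0188). PSBP1 kept its call in 2 of 6 such fits, and with the length and GC trend removed PSBQ2 (−0.28) and PSBP1 (−0.25) were no longer called. PSBS (AT1G44575), the sensor protein of non-photochemical quenching, was −0.09 (SE 0.10) in SnRK1α1-OE, −0.21 (SE 0.10) in sesquiα2 and 0.18 (SE 0.098) in Col-0 and not called. The small subunits PSBW (AT2G30570) (−0.27, 0.05 and 0.36) and PSBTN (AT3G21055) (−0.22, −0.14 and 0.20) were not called in any genotype.

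PSBO and PSBQ are extrinsic proteins of the oxygen-evolving complex with 2 genes each. The per-length ratio of PSBO2 to PSBO1 (AT5G66570) was 0.399 ± 0.0683 at EN against 0.474 ± 0.0788 at ED in SnRK1α1-OE, 0.317 ± 0.0125 against 0.323 ± 0.0163 in sesquiα2 and 0.398 ± 0.1 against 0.318 ± 0.0169 in Col-0 (SD, n = 3). PSBO1 had −0.01 (SE 0.097) in SnRK1α1-OE, 0.07 (SE 0.085) in sesquiα2 and 0.34 (SE 0.12) in Col-0 for EN over ED, with no call. The ratio of PSBQ2 to PSBQ1 was 0.394 ± 0.0494 at EN against 0.467 ± 0.0717 at ED in SnRK1α1-OE, 0.559 ± 0.0329 against 0.581 ± 0.0159 in sesquiα2 and 0.419 ± 0.047 against 0.563 ± 0.0386 in Col-0. Neither ratio had the wide separation of EN from ED seen for LHCB4 and PSAD.

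**Figure D4:**
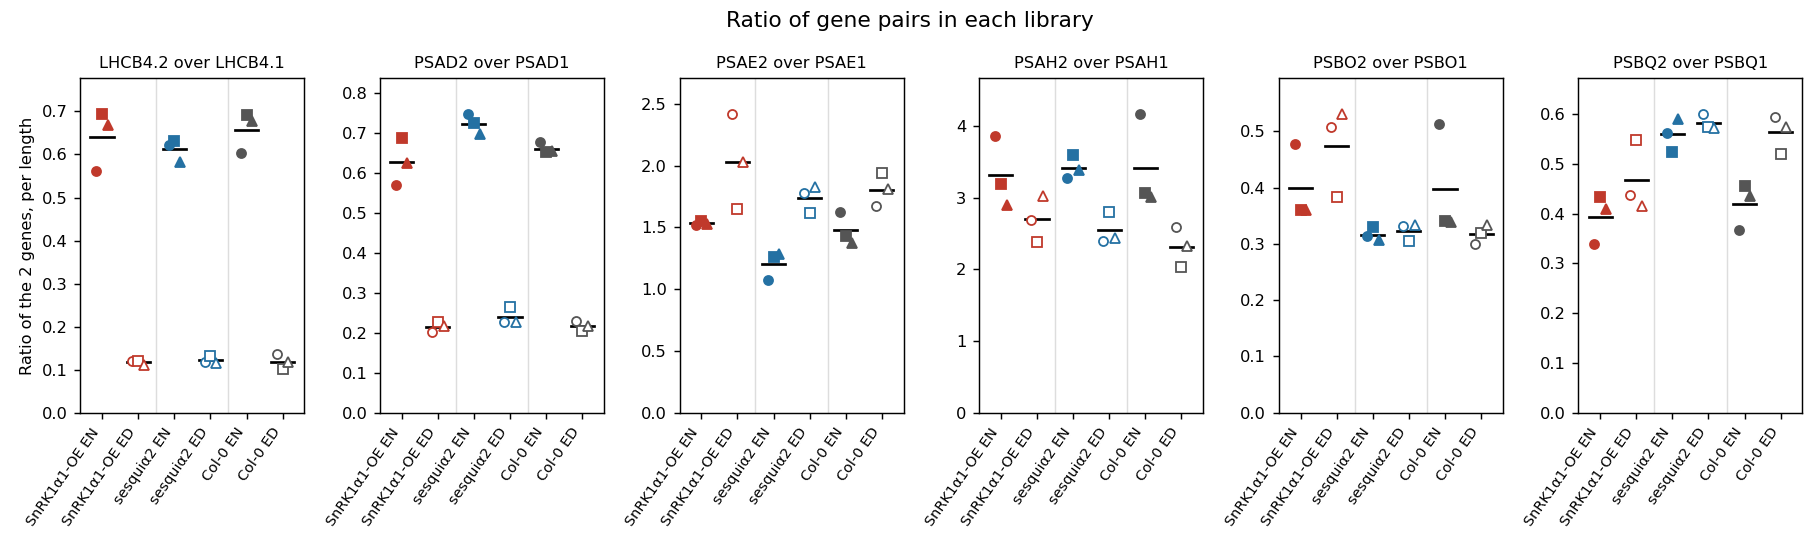
Ratio of the per-length values of 2 genes for 1 subunit (vertical axis) in each library (points; filled, EN; open, ED; circle, square and triangle, replicates 1, 2 and 3), with the group mean as a black line. The ratios LHCB4.2 to LHCB4.1 and PSAD2 to PSAD1 lie at 0.561 or more in all EN libraries and at 0.263 or less in all ED libraries.

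The second question was whether the lines differed from Col-0. The comparisons of the lines share the Col-0 libraries, so their members are not independent between them. In SnRK1α1-OE at ED, no member passed limma (0.276% of all genes did), and edgeR on the recovered reads called 0 (0.291%). At an unadjusted p under 0.05 there were 18, and such counts, here and below, have no share of all genes beside them. The differences nevertheless leaned one way, with 41 of 42 above 0 and a median of 0.23 beside −0.12 over all genes. The 3 lists of other photosynthesis genes lay on the same side. Above 0 were 14 of 14 electron transport genes (median 0.28) and 13 of 14 antenna relatives (0.15). So were 6 of 6 assembly factors and minor subunits of photosystem II (0.45). All 3 mesophyll markers (0.30) and 2 of 3 guard cell markers (0.31) were above 0 as well. The part of these genes in the lean was not tested. All 3 SnRK1α1-OE libraries lay above all 3 Col-0 libraries for 17 members (11.0% of all genes) and below them for 0 (20.4%). These 17 were 4 LHCA genes, 5 PSA genes and 8 PSB genes, and no LHCB gene. PSBO2 came closest to the threshold, with 62161, 48966 and 67574 in SnRK1α1-OE against 37196, 32182 and 33991 in Col-0, or 0.78 (SE 0.13, adjusted p = 0.0574) on the log2 scale. PSAN had 0.76 (SE 0.18, adjusted p = 0.0846), PSBR 0.73 (SE 0.16, adjusted p = 0.0715) and LHCA4 0.67 (SE 0.15, adjusted p = 0.0753). Without Col-0 ED replicate 1, the library that stood apart, 17 members were called, all higher in SnRK1α1-OE, and without SnRK1α1-OE ED replicate 2, 1 was called. Col-0 ED replicate 1 was picked out by its high values for most of these same members. Leaving it out, here and below, is therefore no separate support. A fit of all 18 libraries called 15, and removal of the length and GC trend 7. The share of all genes called under these settings is not given here, so these counts were not set against a background.

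In SnRK1α1-OE at EN the lean was opposite and smaller. No member passed limma (0.0670% of all genes), 2 had an unadjusted p under 0.05 and edgeR called 0 (0.0771% of all genes). Of 42 differences, 2 were above 0, and the median was −0.13 beside 0.03 over all genes. The medians of the other lists were −0.08 for electron transport, −0.04 for antenna relatives and −0.10 for photosystem II assembly factors and minor subunits. Those of the markers were −0.03 for mesophyll and −0.09 for guard cells. The SnRK1α1-OE libraries lay above Col-0 for 0 members (7.01% of all genes) and below for 6 (3.28%), namely LHCB1.4, LHCB5, PSAE1, PSAF, PSBQ2 and PSBX. LHCB1.4 had 39856, 54669 and 42695 in SnRK1α1-OE against 54818, 72671 and 55459 in Col-0, or −0.42 (SE 0.16, adjusted p = 1). The difference of the SnRK1α1-OE effect between EN and ED had an unadjusted p under 0.05 for 22 members, a count without a background. This difference was called for no member by limma (0.210% of all genes) or edgeR (0.0648%). It was below 0 for all 42 members, with a median of −0.35 beside 0.14 over all genes. The other lists lay on the same side, at −0.41 for electron transport, −0.18 for antenna relatives and −0.52 for photosystem II assembly factors and minor subunits. The mesophyll markers had −0.33 and the guard cell markers −0.395. Median-ratio scaling moved the all-gene median to 0.01 and the members' median to −0.49. Without Col-0 ED replicate 1, 12 members were called, and the fit of all 18 libraries called 7. Neither count was set against a background.

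In sesquiα2 at ED, 1 member was called (0.419% of all genes), with 20 at an unadjusted p under 0.05, a count without a background. LHCB2.3 had 1614, 1577 and 1488 in sesquiα2 against 1006, 772 and 919.6 in Col-0, with all sesquiα2 libraries above all Col-0 libraries and a log2 difference of 0.80 (SE 0.12, adjusted p = 0.0418). The call was lost without each of 5 of the 6 libraries in turn and kept only without Col-0 ED replicate 1, with differences over the 6 fits of 0.70 to 0.89. LHCB2.1 and LHCB2.2 had 0.60 (SE 0.18, adjusted p = 0.218) and 0.54 (SE 0.20, adjusted p = 0.284). LHCB1.4 lay on the other side, with 6653, 7836 and 11016 in sesquiα2 against 12522, 15339 and 14815 in Col-0, or −0.77 (SE 0.18, adjusted p = 0.149). Differences of 38 of 42 members were above 0, with a median of 0.24 beside 0.00 over all genes. The other lists lay on the same side, with 14 of 14 electron transport genes above 0 (median 0.22) and 13 of 14 antenna relatives (0.20). So did 6 of 6 photosystem II assembly factors and minor subunits (0.25) and 3 of 3 mesophyll markers (0.30). Their part in the lean was not tested. Of 3 guard cell markers, 1 was above 0 (median −0.04). The groups did not overlap for 21 higher members (11.2% of all genes) and 1 lower member, LHCB1.4 (9.21%). Without Col-0 ED replicate 1, 13 members were called, all higher in sesquiα2, a count that was not set against a background.

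In sesquiα2 at EN, 1 member was called (2.95% of all genes), with 10 at an unadjusted p under 0.05, a count without a background. LHCB3 had 131133, 122397 and 136839 in sesquiα2 against 94611, 98778 and 92461 in Col-0, or 0.45 (SE 0.10, adjusted p = 0.0483). That call was lost in edgeR (0.35, adjusted p = 0.152), under median-ratio scaling (0.35) and without each of 5 of the 6 libraries. Without Col-0 EN replicate 1, 4 members were called, a count that was not set against a background. The median over the members was 0.07 beside 0.10 over all genes, and −0.03 beside 0.00 with median-ratio scaling. The classes lay on different sides of 0, which was not tested. Above 0 were 12 of 13 LHCB genes (median 0.18) and 4 of 6 LHCA genes (0.10). The counts were 5 of 12 for PSA (−0.04) and 2 of 11 for PSB (−0.09), and 12999 of 19582 over all genes tested. The LHCB and PSB medians kept their sign under median-ratio scaling (0.08 and −0.19) and quantile normalization (0.22 and −0.05). With median-ratio scaling, 10 of 13 LHCB genes were above 0 and the LHCA median was −0.002. The PSA median was 0.05 under quantile normalization. At EN the other lists had medians of −0.14 for electron transport, −0.10 for antenna relatives and −0.09 for photosystem II assembly factors and minor subunits. The mesophyll and guard cell markers had −0.065 and −0.09. The groups did not overlap for 10 higher members (18.8% of all genes) and 4 lower ones (6.67%), namely LHCA6, PSBO2, PSBQ1 and PSBR. The difference of the sesquiα2 effect between EN and ED had an unadjusted p under 0.05 for 16 members, a count without a background. This difference was called for no member by limma (0.815% of all genes) or edgeR (0.873%). Its median was −0.27 beside 0.11 over all genes, and −0.40 beside −0.01 with median-ratio scaling. The other lists lay on the same side, at −0.43 for electron transport, −0.38 for antenna relatives and −0.47 for photosystem II assembly factors and minor subunits. The mesophyll markers had −0.36 and the guard cell markers −0.11. LHCB1.4 had the largest difference, 1.03 (SE 0.25, adjusted p = 0.0762). Without Col-0 ED replicate 1, 7 members were called, and without sesquiα2 ED replicate 2, 1. Neither count was set against a background.

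**Figure D5:**
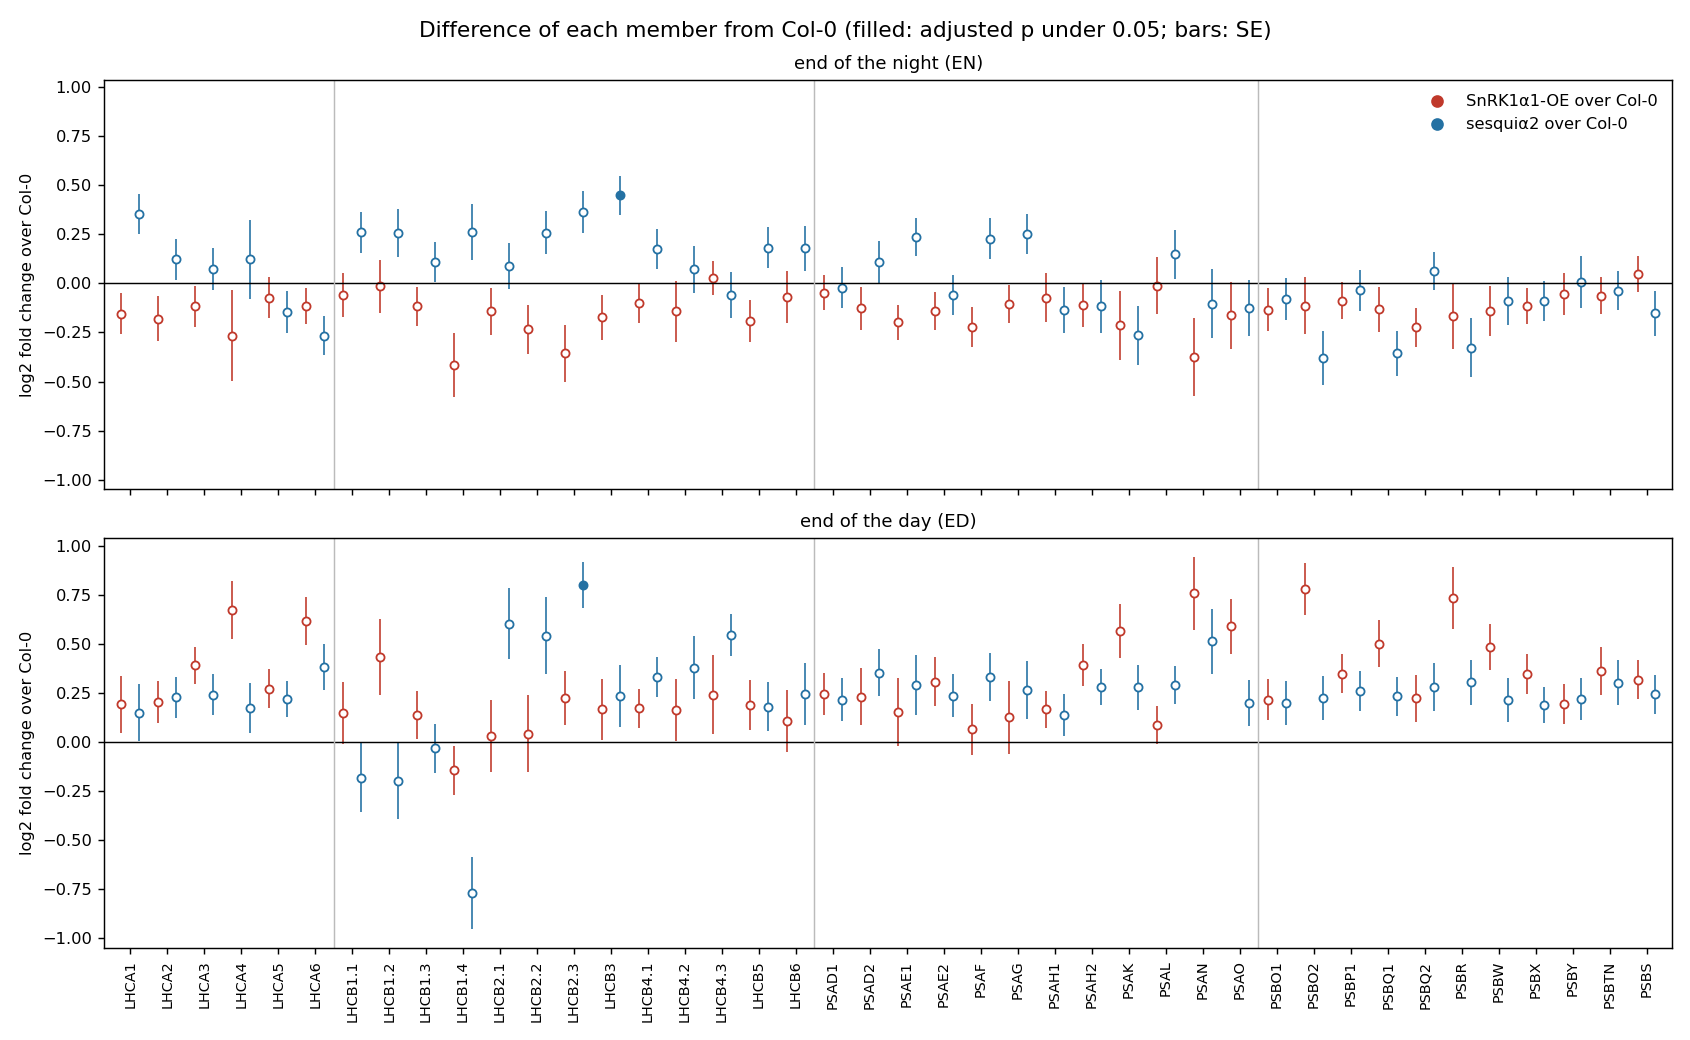
Log2 fold change over Col-0 (vertical axis) of the 42 members tested, in SnRK1α1-OE and sesquiα2, at EN (upper panel) and ED (lower panel), with the SE as bars and members with an adjusted p under 0.05 filled. At ED most points lie above 0, with LHCB1.4 in sesquiα2 at −0.77, and only LHCB2.3 (ED) and LHCB3 (EN) in sesquiα2 are filled.

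Genes around the photosystems were read from 3 lists, chosen with earlier results of these data known. Their counts stand beside the shares of all genes given above, with 21.2% higher and 24.3% lower at EN in SnRK1α1-OE, 22.1% and 26.8% in sesquiα2, and 16.1% and 28.9% in Col-0. Of 14 electron transport genes, 3 were higher and 3 lower at EN in SnRK1α1-OE, 3 higher and 5 lower in sesquiα2, and 5 higher and 1 lower in Col-0, and the list's median was −0.16 in SnRK1α1-OE, −0.11 in sesquiα2 and 0.33 in Col-0. PGR5, of cyclic electron flow, was higher by 1.13, 1.25 and 1.71, whereas LFNR2, a leaf ferredoxin-NADP reductase, was lower (−1.27, −1.23 and −0.73). Of 14 relatives and regulators of the antenna proteins, 9 rose and 1 fell at EN in SnRK1α1-OE, 8 and 4 in sesquiα2, and 9 and 1 in Col-0, with a median of 0.57 in SnRK1α1-OE, 0.40 in sesquiα2 and 0.63 in Col-0. ELIP2, an early light-induced protein, had 1304, 1364 and 1327 at EN against 52.6, 51.8 and 68 at ED in SnRK1α1-OE and a log2 fold change of 4.52, with 3.87 in sesquiα2 and 3.69 in Col-0.

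STN7, the kinase of LHCII in state transitions, was higher at EN by 1.58 in SnRK1α1-OE, 1.46 in sesquiα2 and 1.76 in Col-0. GLK2, a transcription factor of photosynthesis genes, was higher by 2.53, 2.27 and 2.71. Its paralogue GLK1 was lower at EN in sesquiα2 (−0.30) and Col-0 (−0.52) and was −0.21 (SE 0.12) in SnRK1α1-OE. At EN, GLK1 had 9804, 10423 and 9791 in sesquiα2 against 6037, 5951 and 6618 in Col-0, without overlap, and differed by 0.69 (SE 0.097, adjusted p = 0.00623). SEP2, a stress-enhanced relative of the antenna proteins, differed in the other direction, with 2683, 3361 and 2702 in sesquiα2 against 4850.0, 4079 and 3942 in Col-0 and −0.56 (SE 0.13, adjusted p = 0.0493), a call kept without 1 of the 6 libraries and lost without each of the other 5. Between the time points the sesquiα2 effect on SEP2 differed by −0.87 (SE 0.17, adjusted p = 0.0431) and that on PPL2, of the photosystem II list, by −0.57 (SE 0.12, adjusted p = 0.048), calls kept in 4 and 1 of 12 fits without 1 library. Of 6 assembly factors and minor subunits of photosystem II, 1 was higher and 1 lower at EN in SnRK1α1-OE, 2 and 1 in sesquiα2, and 4 and 0 in Col-0, with a median of 0.01 in SnRK1α1-OE, 0.01 in sesquiα2 and 0.44 in Col-0. PSB28 fell in SnRK1α1-OE (−0.61) and sesquiα2 (−0.74) and was −0.10 (SE 0.14) in Col-0.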

How the data were processed

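Whole-rosette RNA of 3 genotypes at 2 times was sequenced in 18 libraries, 3 per group, as given by the labels. The submitters' processing notes name HISAT2, SAMtools, featureCounts, edgeR and the TAIR10 build, and the strand setting of the counting is not given in the sources used here. The authors deposited a normalised signal per gene and library, made of edgeR pseudo-counts multiplied by TMM factors, so that each library has nearly the same total. With equal totals, the differences in composition that TMM factors correct for stay in the values. The shares of all genes higher or lower carry them too. The factors were 0.98, 0.90 and 0.90 in Col-0 EN against 1.03, 1.02 and 1.05 in Col-0 ED. Whole reads were recovered by inverting the calculation of the deposited signal, and 99.91% of values came out within 0.05 of a whole number.

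The log2 of the deposited value plus 1 was fitted with limma (3.58.1, R 4.3.3) with trend and robust settings, over genes with at least 10 in at least 3 libraries and a sum of at least 15, on 6 libraries per comparison and 12 for the difference between time points. Benjamini-Hochberg adjustment was made over every gene tested. Fold changes are on that log2 scale, which understates changes of low genes, and p-values measure only the spread between these pools. With 3 libraries against 3, an exact test of 1 gene could not pass the threshold and none was run.

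Alternatives were a lower and a higher pseudocount, no filter, quantile normalization, scaling by median ratios, all 18 libraries in 1 fit, no robust setting, a replicate block, edgeR (4.0.16) on the recovered reads, and each library left out. The removal of a gene length and GC trend was chosen after seeing the data. On the recovered reads edgeR called 46.3% of genes in SnRK1α1-OE, 50% in sesquiα2 and 43.3% in Col-0 between EN and ED. The members and lists were chosen with earlier results of these data known. Called members are named; above 12 calls, the 3 largest changes per class and direction are named with values, and gene copies are described pair by pair.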

Additional observations from a re-analysis of the deposited data

Results flagged for a closer look

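LHCA6, PSBX, PSBQ1 and PSBR had effects that pointed opposite ways in a pair of groups, with every sample on its own side. The difference was tested in each case with limma and did not pass an adjusted p of 0.05. For LHCA6, the change of EN over ED was −0.36 in SnRK1α1-OE against 0.38 in Col-0, a difference of −0.73 (adjusted p = 0.0746). LHCA6 in sesquiα2 was −0.27 from Col-0 at EN and 0.38 at ED, a difference of −0.65 (adjusted p = 0.0708). For PSBX, SnRK1α1-OE differed from Col-0 by −0.11 at EN and 0.35 at ED, a difference of −0.46 (adjusted p = 0.11). For PSBQ1, sesquiα2 differed from Col-0 by −0.36 at EN and 0.23 at ED, a difference of −0.59 (adjusted p = 0.08). For PSBR, sesquiα2 differed from Col-0 by −0.33 at EN and 0.30 at ED, a difference of −0.63 (adjusted p = 0.138). Col-0 ED replicate 1 was the highest of its group for 39 of 42 members, so leaving it out favours these differences and is no separate support. Without it, the differences of LHCA6 in SnRK1α1-OE (adjusted p = 0.028) and of LHCA6 (0.0162), PSBQ1 (0.0208) and PSBR (0.0437) in sesquiα2 passed the threshold and that of PSBX in SnRK1α1-OE (0.0508) did not.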

How the results depend on the processing

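Among 72 called member effects and 1152 values under alternatives, 1040 kept their call, 111 kept their direction and lost it, and 1 reversed. LHCB1.3 for EN over ED in SnRK1α1-OE was −0.19 under quantile normalization, against 0.37 as reported, and the cause was not tested. Quantile normalization fixes values by rank and can show little of a change in so high a gene. All alternatives kept 48 of the effects. For the counts below, the share of all genes called under the same setting is not given, so they have no background. With 1 library left out, 15 to 23 members were called for EN over ED in SnRK1α1-OE, 21 to 25 in sesquiα2 and 19 to 30 in Col-0. Against Col-0, the SnRK1α1-OE counts were 0 to 17 for ED and 0 to 0 for EN, the sesquiα2 counts 0 to 13 for ED and 0 to 4 for EN, and for the difference between time points 0 to 12 in SnRK1α1-OE and 0 to 7 in sesquiα2. In SnRK1α1-OE at ED, median-ratio scaling called 1 member, the fit of all 18 libraries 15 and the removed length and GC trend, which was chosen after seeing the data, 7, against 0 as reported. In sesquiα2 at ED, the fit of all 18 libraries called 4 against 1. In sesquiα2 at EN, 0 were called with no filter, median-ratio scaling, the fit of all 18 libraries, no robust setting, edgeR or the trend removed, against 1. For the difference between time points, the fit of all 18 libraries called 7 in SnRK1α1-OE and 2 in sesquiα2 and the removed trend 6 and 2, against 0 each.

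The replicate numbers did not pair the samples: of 45 pairs of same-numbered libraries, 13 had deviations correlated above 0.1, over a range of −0.39 to 0.50, and in 12 a library correlated best with its own number. With the replicate block, 62 of 70 time effects were still called, with counts of 17 in SnRK1α1-OE, 20 in sesquiα2 and 28 in Col-0. Against Col-0, the replicate block gave 1 member for SnRK1α1-OE at EN, and 0 for sesquiα2 at both times. The limits are 3 pooled samples a group, the shared Col-0 libraries, near-identical copies and overlapping genes counted with an unknown strand setting.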
